A study of Drosophila melanogaster with 2 samples.

Results

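ChIP-seq of Asciz gave 362 reproducible peaks at long non-coding RNA (lncRNA) genes and 4723 other peaks in the dm6 genome of Drosophila melanogaster, so that the lncRNA peaks made up 7.12% of the list. A peak was placed in this set when the annotated transcription start site (TSS) nearest to its summit, the position of highest signal, was within 2000 bp and belonged to a gene whose name begins with lncRNA: or asRNA:. The prefix asRNA: marks antisense RNAs, which are annotated on the strand opposite to another gene. Reproducible refers to the authors' IDR list (irreproducible discovery rate), and some of its peaks overlap no region of one library. The IDR list itself holds the regions of highest pooled signal, so every peak had passed a limit on signal; within that list the set was chosen by position alone. It held 324 peaks at lncRNA: genes and 38 at asRNA: genes, and the 362 peaks fell on 282 genes, so peaks that share a gene are not independent. A further 6 peaks were equally near to an lncRNA TSS and to that of another gene and were left out.

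The samples were 2 libraries of a single group, biological replicates 1 and 3, each technical replicate 1. Both came from whole embryos of 0 to 24 h, males and females pooled, of a transgenic line in which CG14962, the gene also called Asciz, is stably expressed as a fusion that carries GFP C-terminally. The precipitation used an antibody against GFP. All cell types and embryonic ages are therefore mixed, and the protein detected is the tagged copy. The labels describe no second genotype or treatment, and peaks are not replicates of a condition, so counts, shares and medians are given side by side without tests between classes of peaks. Read depth is not known for either library. Intervals on shares are 95% Wilson intervals that cover counting error over peaks or genes, not differences between embryos.

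Asciz is a zinc finger transcription factor known for activating ctp, which encodes the LC8 light chain of dynein. Long non-coding RNAs are transcripts without a long open reading frame; some work in chromatin regulation, such as the roX RNAs of dosage compensation, while for many fly lncRNAs known only by a CR number no function has been assigned. Their promoters often lie inside or beside the regulatory DNA of protein-coding genes, and a peak near such a TSS can therefore lie in an enhancer or promoter of another gene. Of the 282 genes here, 8 had a name other than a CR number.

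The genome sequence at the strongest summits follows. It is shorter than the fragments of 200 to 800 bp that the labels give, so it does not define the bound bases. The summit base with 50 bp on either side (the summit window) is given for the 6 highest peaks of those on 2L, 3L, 3R, 4 and X, on the plus strand of dm6, with capitals for runs of at least 8 bases made only of A and T.
lncRNA:CR31840, 2L:14024039-14024139: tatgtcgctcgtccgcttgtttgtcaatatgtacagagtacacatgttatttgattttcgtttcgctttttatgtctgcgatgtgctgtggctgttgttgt
lncRNA:CR44619, X:12751267-12751367: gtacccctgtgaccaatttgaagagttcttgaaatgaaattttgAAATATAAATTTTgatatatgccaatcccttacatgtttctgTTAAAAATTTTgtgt
lncRNA:CR31044, 3R:29214383-29214483: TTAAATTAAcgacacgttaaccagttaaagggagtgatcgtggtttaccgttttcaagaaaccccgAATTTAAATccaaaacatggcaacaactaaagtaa
lncRNA:CR46035, 3R:17704369-17704469: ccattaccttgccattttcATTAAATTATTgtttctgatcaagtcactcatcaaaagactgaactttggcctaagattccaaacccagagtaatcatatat
lncRNA:CR45695, 2L:1648726-1648826: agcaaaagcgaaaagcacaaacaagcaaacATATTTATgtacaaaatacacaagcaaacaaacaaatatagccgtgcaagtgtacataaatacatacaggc
lncRNA:CR45643, 3R:16222450-16222550: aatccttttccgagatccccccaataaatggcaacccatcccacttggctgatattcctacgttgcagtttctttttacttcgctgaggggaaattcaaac
The CR31840 window, with 59.4% A+T, and the CR45643 window, with 55.4%, hold no such run. The CR44619 window has 71.3% A+T and a longest run of 13 bp, and the longest run is 11 bp at CR46035, 9 bp at CR31044 and 8 bp at CR45695.

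Signal is the peak caller's value per peak as deposited by the authors, from both libraries together (pooled signal). The signal of each library's own list was scaled to the median of that library over the reproducible peaks, so that a relative signal of 1 is that of the median peak. Positions are in bp from the nearest TSS, negative when upstream. The highest lncRNA peak, at lncRNA:CR31840 (FBgn0051840, 2L:14023901-14024359, position 10), had a pooled signal of 2490 and rank 3 among all peaks. Replicate 1 gave it a relative signal of 11.3 and replicate 3 one of 11.97 (mean 11.6 ± 0.453, SD, n = 2). The gene is a single exon of 378 bp on the minus strand that overlaps no protein-coding gene. The nearest protein-coding TSS was that of hll, on the plus strand, and the summit lay upstream of that TSS, at -2912 bp.

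The second highest, at lncRNA:CR44619 (FBgn0265830, X:12750859-12751625, position -550), had a pooled signal of 1904 and relative signals of 10.1 in replicate 1 and 7.58 in replicate 3 (8.82 ± 1.76, SD, n = 2). A second peak of the same gene at position 500 had a pooled signal of 985 and relative signals of 4.70 and 4.67 in replicates 1 and 3. The peak upstream of lncRNA:CR44339 (position -167) had a pooled signal of 1555 and relative signals of 6.94 and 7.49. Its nearest protein-coding gene was Psc, a Polycomb group gene, at -4206 bp. The peak at lncRNA:CR31044 (FBgn0051044, 3R:29214262-29214599, position -129) had a pooled signal of 1267 and relative signals of 5.63 and 6.12 (5.87 ± 0.345, SD, n = 2). Its nearest protein-coding gene was eEF1gamma, for a translation elongation factor subunit, at -5739 bp. The peaks of CR31840, CR44619 (-550 bp), CR44339 and CR31044 stood in this order in both libraries, with CR44619 and CR44339 nearly level in replicate 3.

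**Figure D1:**
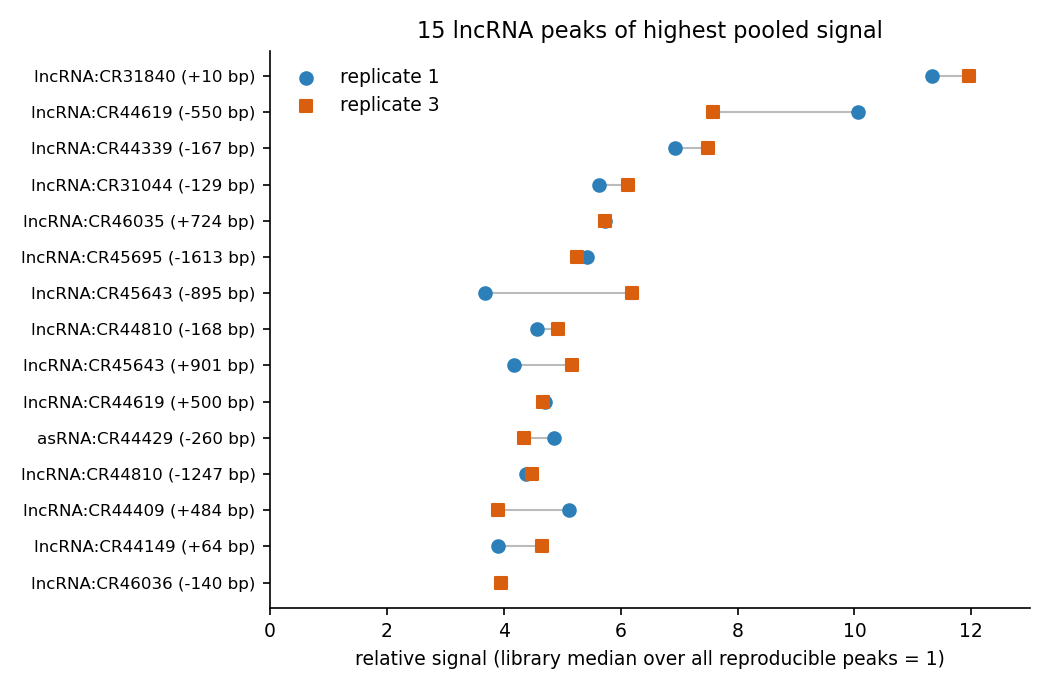
Relative signal of the 15 lncRNA peaks of highest pooled signal (rows, with the summit position from the TSS), where 1 is the median reproducible peak of the library; circles are replicate 1 and squares replicate 3. CR31840 stands at 11.3 and 11.97, CR45643 (-895 bp) at 3.67 and 6.20, and CR46036 has no value in replicate 1.

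The peaks at lncRNA:CR46035 (position 724, signal 1233) and lncRNA:CR46036 (position -140, signal 901) both lay inside osa, which encodes a subunit of the Brahma chromatin remodelling complex, and both lncRNAs run opposite to it. The CR46035 peak had relative signals of 5.74 and 5.73 in replicates 1 and 3. The CR46036 peak had 3.96 in replicate 3 and overlapped no region of replicate 1, where the nearest region was 1997 bp away with a relative signal of 0.395. The peak at lncRNA:CR45695 (position -1613, signal 1119) was at -2482 bp from chinmo, a zinc finger gene of neuronal temporal identity, with relative signals of 5.43 and 5.25. The spread between the libraries was widest, among these 15, at lncRNA:CR45643, whose peak at -895 bp (signal 1102) had 3.67 in replicate 1 and 6.20 in replicate 3 (4.93 ± 1.79, SD, n = 2).

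The other peaks among the 15 had signals between 932 and 1028. The second CR45643 peak, at 901 bp, had a signal of 1009 and relative signals of 4.17 and 5.16. Of the peaks at lncRNA:CR44810, near slbo, the C/EBP gene of border cell migration, the one at -168 bp had a signal of 1028 (4.57 and 4.93) and the one at -1247 bp had 956 (4.38 and 4.48). The peak at asRNA:CR44429 (position -260, signal 978, 4.85 and 4.34) lay inside gce, a juvenile hormone receptor gene. The peak at lncRNA:CR44409 (position 484, signal 943, 5.11 and 3.90) lay inside Dif, an NF-kappaB gene of the immune response. The peak at lncRNA:CR44149 (position 64, signal 932, 3.89 and 4.65) lay at -169 bp from brwl.

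Over all 362 peaks the median pooled signal was 216, with quartiles of 157 and 342 and a range of 127 to 2490. Peaks nearest to a protein-coding TSS within 2000 bp (2746 peaks) had a median of 213, and all peaks together 205. The median relative signal of the lncRNA peaks was 1.08 in replicate 1 and 1.04 in replicate 3, against 1.06 and 1.06 for the protein-coding set. The 500 highest peaks of the list are 9.83% of it, and 38 of the 362 lncRNA peaks (10.5%) were among them, a share near that background.

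The lncRNA peaks were spread round their TSS. The median position was 0.5 bp, with quartiles of -408 and 624 bp, and 181 of 362 (50%, 44.9 to 55.1) lay upstream. For the protein-coding set the median was -112 bp, with quartiles of -326 and 288 bp, and 64.3% lay upstream. Within 500 bp of the TSS lay 173 lncRNA peaks (47.8%, 42.7 to 52.9) and 1687 protein-coding ones (61.4%). The fullest bin, from -250 bp to the TSS, held 18.2% of the lncRNA peaks and 33.0% of the protein-coding peaks. Between 250 and 750 bp downstream the bins of the lncRNA peaks held 10.2% and 10.5%, and those of the protein-coding peaks 3.79% and 4.41%.

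**Figure D2:**
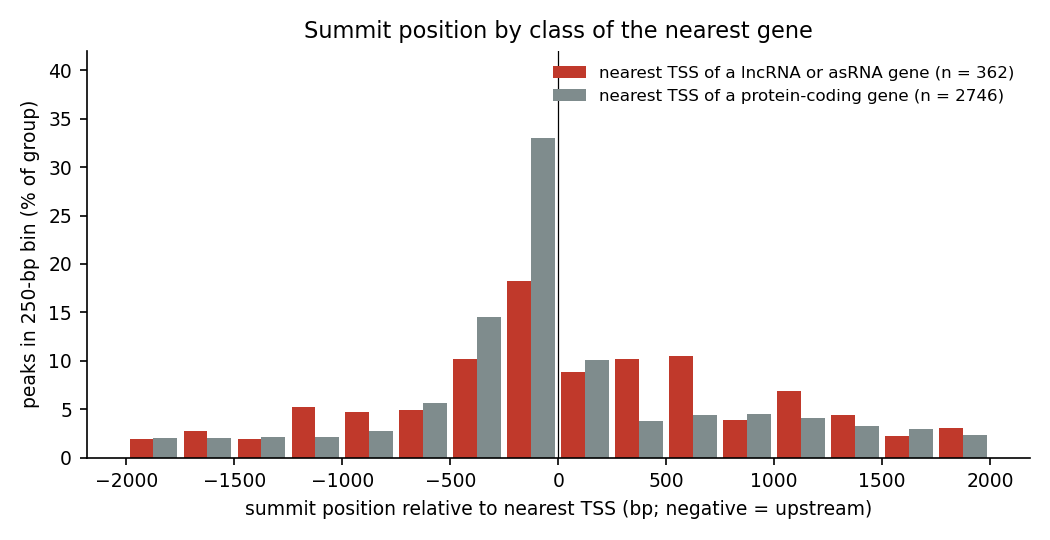
Share of peaks (vertical axis, percent of each class) in 250-bp bins of summit position from the nearest TSS (horizontal axis, bp, negative upstream) for 362 lncRNA peaks (red) and 2746 peaks nearest to a protein-coding TSS (grey). In the bin just upstream of the TSS the red bar is at 18.2% and the grey bar at 33.0%.

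The library lists were also taken alone, each cut to as many of its highest regions as there are reproducible peaks. In replicate 1, 46.2% of 368 lncRNA regions lay within 500 bp of the TSS, against 58.8% of the protein-coding ones. In replicate 3 the shares were 47.3% of 351 lncRNA regions and 64.3% of the protein-coding ones. Upstream positions made up 51.4% of the lncRNA regions and 64.8% of the protein-coding regions in replicate 1, and 49.9% and 63.0% in replicate 3.

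The lncRNA and asRNA genes own 2609 of 23998 annotated TSSs (10.9%), and the lncRNA peaks were 11.4% (10.3 to 12.5) of the 3182 peaks with a TSS within 2000 bp. They made up 9.1% of the peaks within 500 bp of a TSS and 14.8% of those between 501 and 2000 bp. By chromosome, lncRNA peaks were 12.2% of the peaks near a TSS on 2L, 12.5% on 2R, 12.3% on 3L, 11.0% on 3R and 8.21% on X, and chromosome 4 had 1 such peak. The number of annotated lncRNA and asRNA genes also differed between chromosomes. There were 78 lncRNA peaks for 616 such genes on 2L, 75 for 394 on 2R and 85 for 553 on 3L. On 3R there were 83 for 550, on X 40 for 310, and on chromosome 4 there were 24 such genes.

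The rule gives a peak to an lncRNA gene only where no protein-coding TSS is nearer, so it limits how many lncRNA peaks can lie near a protein-coding TSS, and the distances to such TSSs are a description. The nearest protein-coding TSS was a median of 3099 bp away, 228 of 362 had none within 2000 bp, and 65 had none within 10000 bp. A protein-coding TSS lay within 500 bp of 32 lncRNA peaks (8.84%, 6.33 to 12.2), against 34.1% of all peaks, which the rule does not limit. The 228 peaks without a protein-coding TSS in reach had a median signal of 211, and the 32 on protein-coding promoters 209. The summit was in intergenic sequence for 151 peaks (41.7%), against 34.7% of the protein-coding set and 31.0% of all peaks. It was inside a protein-coding gene for 129 (35.6%), against 64.3% and 65.9%. The class of the nearest TSS bears on these shares too, since a summit just downstream of a protein-coding TSS lies inside that gene. In 220 cases (60.8%) the lncRNA gene overlapped no protein-coding gene, in 105 (29.0%) it overlapped on the opposite strand only, in 33 (9.12%) on the same strand only and in 4 on both. Counted by gene, 58.2% of the 282 genes with a peak overlapped no protein-coding gene, near the 56.2% of all 2447 lncRNA and asRNA genes.

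Of the 32 peaks within 500 bp of a protein-coding TSS, that of lncRNA:CR44149, described above, was the highest. The peak of asRNA:CR45928 (position 91, signal 782) was at -120 bp from eIF6, a ribosome biogenesis factor gene, with relative signals of 3.68 and 3.57 in replicates 1 and 3. The peak of lncRNA:CR43644 (position -303, signal 707) was at -444 bp from E(spl)m3-HLH, a Notch target gene, with 3.95 and 2.78. That of asRNA:CR46044 (position -99, signal 635) was 452 bp inside Septin2, a septin gene, with 3.05 and 2.79. The peak of asRNA:CR43257 (signal 343, 1.42 and 1.76) was at -225 bp from Reg-5. The peak of asRNA:CR44293 (signal 339, 1.66 and 1.53) was at -260 bp from PCB, the pyruvate carboxylase gene. Whether such a summit belongs to the lncRNA or to its neighbour cannot be told apart from position.

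Of the 38 antisense RNA peaks, at 34 genes, 71.1% lay upstream of their TSS, against 47.5% of the 324 lncRNA: peaks. Within 500 bp of it lay 65.8%, against 45.7%. The protein-coding set had 64.3% upstream and 61.4% within 500 bp, so these positions are not particular to antisense RNAs. A protein-coding TSS lay within 500 bp of 12 of the 38 (31.6%), against 20 of 324 (6.17%), at a median distance of 739 bp against 3652 bp. The asRNA: genes of all 38 overlapped a protein-coding gene on the opposite strand, and those of 2 of them also one on the same strand. Overlap with another gene is what the prefix marks, so it is no result about the peaks. The prefix also bears on the nearness to protein-coding TSSs. These 38 peaks had a median signal of 240, against 214 for the lncRNA: peaks. Besides CR44429, CR45928 and CR46044, the highest were asRNA:CR45804 inside Prps (position -744, signal 731, relative signals 3.76 and 3.17) and asRNA:CR45908 inside CG1943 (position -351, signal 476, 1.93 and 2.47). Next came asRNA:CR45136 in CG30015 (position -62, signal 400.5, 1.79 and 1.80) and asRNA:CR46005 in l(3)mbn (position -577, signal 391, 1.32 and 2.19). The peak of asRNA:CR46194 lay in Oda, the ornithine decarboxylase antizyme gene (position -1035, signal 387, 1.68 and 2.04). Those of asRNA:CR46145 in FER, a tyrosine kinase gene (position -26, signal 384, 1.55 and 1.93), and of asRNA:CR45999 (position -220, signal 383, 1.78 and 1.86) completed the 10 highest.

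Some lncRNA genes carried several peaks. A single peak lay at 220 of the 282 genes, 48 had 2, and 14 had 3 or more. The most, 5, were nearest to lncRNA:CR46090 (FBgn0267759, 3R:23333504-23333803, minus strand), a 300-bp transcription unit inside pnt, the gene for an ETS factor of receptor tyrosine kinase signalling. Their summits lay on both sides of it, at 1120, 921, -14, -1246 and -1985 bp from its TSS, and none lay inside it. Their signals ran between 142 and 350, and their relative signals between 0.681 and 1.66 in replicate 1 and between 0.611 and 1.66 in replicate 3. The 4 peaks at lncRNA:CR45643 (FBgn0267203, 3R:16223395-16223854, plus strand) lay in intergenic sequence or in the lncRNA upstream of tara, a cell cycle and sleep gene, at -3774 to -1150 bp from its TSS. Their signals, in order along the chromosome, were 565, 1102, 137 and 1009. The 4 peaks at lncRNA:CR45251 (3L:11349395-11349743) had signals of 398, 623, 182 and 230, and the TSS of the nearest protein-coding gene, CG6163, was at least 13315 bp away. Inside puc, the JNK phosphatase gene, lncRNA:CR44331 had 3 peaks of 330, 447 and 154. Inside beat-Ib, a gene of the beaten path family of axon guidance, lncRNA:CR44868 had 3 of 426, 357 and 186. Signals were 140, 216 and 230 at lncRNA:CR45632, upstream of CASK, a membrane scaffold gene. The slbo neighbour lncRNA:CR44810 had another, weaker peak of 165. Along their chromosomes the signals were 251, 546 and 185 at lncRNA:CR43626, 418, 151 and 222 at lncRNA:CR43650, and 402, 349 and 288 at lncRNA:CR43883. They were 187, 467 and 136 at lncRNA:CR43334, 252, 152 and 140 at lncRNA:CR43337, 290, 131 and 200.8 at lncRNA:CR43822, and 152, 147 and 138 at lncRNA:CR45539. Peaks are counted by summit, and the 362 summits lay on 360 distinct peak intervals. lncRNA:CR44409 and lncRNA:CR44380 each had 2 summits in the same interval. Peaks that touch can overlap the same region of a library list, which was the case for 46 of the 362 peaks in each library. Their relative signals are therefore not separate measurements. The same count was not made over all peaks.

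Among lncRNAs of known function, Hsromega carried 2 peaks. Hsromega makes a nuclear RNA that rises on heat shock and gathers RNA-binding proteins in omega speckles. The stronger peak lay inside the gene, 1075 bp downstream of the nearest of its TSSs (FBgn0001234, 3R:21297576-21297833, signal 737), with relative signals of 2.66 in replicate 1 and 3.94 in replicate 3 (3.30 ± 0.908, SD, n = 2). The weaker lay at 234 bp (3R:21296263-21296378, signal 466) with 2.12 and 2.16 (2.14 ± 0.0274, SD, n = 2). The summit windows hold no A+T run of 8 bp.
lncRNA:Hsromega inner peak, 3R:21297646-21297746: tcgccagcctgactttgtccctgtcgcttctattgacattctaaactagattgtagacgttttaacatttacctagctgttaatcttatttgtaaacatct
lncRNA:Hsromega TSS peak, 3R:21296311-21296411: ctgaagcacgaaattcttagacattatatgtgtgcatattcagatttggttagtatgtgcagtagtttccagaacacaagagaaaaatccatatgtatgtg
The windows have 63.4% and 65.3% A+T.

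Other known lncRNAs had weaker peaks or none. The start of flam, the piRNA cluster that silences gypsy-family elements, had a peak at -208 bp (X:21631471-21631894, signal 266, relative signals 1.21 and 1.23). The peak at yar, an lncRNA linked to sleep, lay at -147 bp (signal 182, 0.790 and 0.877). At bxd, in the Ubx regulatory region, the peak lay 1398 bp downstream of the TSS (signal 186, 0.983 and 0.791), and 3 summits lay inside the gene. At acal, which acts in dorsal closure, the peak lay at 1546 bp (signal 218, 1.16 and 0.981). The 3 summits inside iab8, the lncRNA of the abdominal bithorax complex, were all farther than 2000 bp from its TSS, the nearest at 5012 bp (signal 133).

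No reproducible summit lay within 2000 bp of the TSSs of roX1 or roX2, the RNAs of the dosage compensation complex, and the nearest stood at -5953 bp and -18555 bp. Nor had msl-1, msl-2, msl-3, mle, mof or Clamp, the protein genes of that system, a summit within 500 bp (0 of 6), and the nearest of any was 3832 bp away, at mof. The nearest summits to CRG, sphinx, noe and let7C, the host of the let-7 microRNA cluster, were at -37043, 6165, -3610 and 21923 bp. In all, 20 of 24 genes looked for as characterised non-coding RNAs were matched by name. One of the 20, IBIN, is annotated as protein-coding in this release and had its nearest summit at 27905 bp. Of the 20, 7 had a summit within 500 bp, of which 4 were snoRNA host genes outside the set. Over all annotated genes 12.2% had such a summit.

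By gene, the question was what share had a summit near a TSS. Of 2447 lncRNA: and asRNA: genes, 204 (8.34%, 7.31 to 9.50) had a reproducible summit at 500 bp or less from any of their TSSs. Over all genes the share was 12.2%, and protein-coding genes gave 1916 of 13945 (13.7%, 13.2 to 14.3). A gene with more annotated TSSs has more chances to be counted. The lncRNA and asRNA genes are 13.5% of all genes but own 10.9% of all TSSs, and the shares were not adjusted for this. The shares were 8.44% for lncRNA: genes and 7.95% for asRNA: genes. In the top regions of replicate 1 the shares were 8.13% of lncRNA genes and 12.8% of protein-coding genes, and in those of replicate 3 they were 8.17% and 15.2%. Split by distance from protein-coding TSSs, the share of lncRNA genes was 13.5% (10.7 to 17.0) of the 443 with a protein-coding TSS within 500 bp, 9.61% (7.57 to 12.1) of the 645 at 501 to 2000 bp, and 6.03% (4.89 to 7.43) of the 1359 farther away.

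With each summit counted at its nearest TSS alone, the distance classes came in another order. The shares were then 7.0% for lncRNA genes within 500 bp of a protein-coding TSS, 8.06% at 501 to 2000 bp and 5.74% beyond, and 6.58% over all lncRNA genes against 10.7% of protein-coding genes. The median length was 720 bp for the lncRNA genes with a peak and for all, and 57.1% of those with a peak had a single exon, against 59.7% of all. A peak of the set lay at 11.9% of the 1375 lncRNA genes that overlapped no protein-coding gene and at 11.0% of the 1072 that overlapped one.

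**Figure D3:**
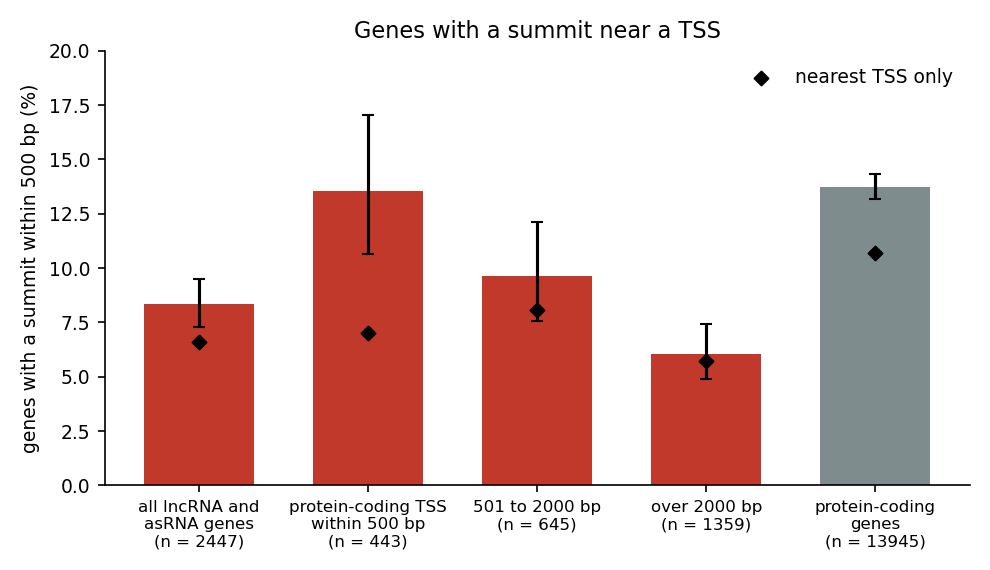
Share of genes (vertical axis, percent) with a reproducible summit within 500 bp of a TSS, for all 2447 lncRNA and asRNA genes, for these genes split by distance to the nearest protein-coding TSS, and for 13945 protein-coding genes. Bars carry 95% Wilson intervals over genes, and diamonds give the share when each summit is assigned to its nearest TSS only, which is 7.0%, 8.06% and 5.74% in the 3 distance classes.

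Both libraries had an overlapping region at 356 of 362 peaks (98.3%, 96.4 to 99.2). The other 6 (1.66%) lacked a region in a library, against 3.54% of all peaks. All 6 lacked it in replicate 1, as did 175 of the 180 such peaks over the whole list. After CR46036, the 6 were led by lncRNA:CR45687 (position 1336, signal 412) and asRNA:CR43470 (position 69, signal 241), with relative signals in replicate 3 of 1.78 and 1.01. They also included lncRNA:CR42549, lncRNA:CR44467 and asRNA:CR43889, with signals between 134 and 207. Of the 356, 170 were higher in replicate 3 and 186 in replicate 1. Spearman's rho between libraries was 0.817 over these peaks, which share libraries and normalization, against 0.776 over all peaks with a region in both. The IDR list was made from these same 2 libraries, so the filter itself favours agreement between them.

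At 12 of the 356 peaks (3.37%) the libraries were over 1 log2 unit apart, against 4.32% of all peaks with a region in both. Of the 12, 9 were higher in replicate 3, and over all peaks 136 of the 212 so far apart were. The lean to replicate 3 is thus not particular to the lncRNA peaks. The widest difference was at lncRNA:CR43928 (position -174, signal 226), with 0.331 in replicate 1 and 1.17 in replicate 3, at -2265 bp from Thor, the 4E-BP gene. It was followed by lncRNA:CR45897 (0.310 and 0.843), lncRNA:CR43650 (0.523 and 1.37), lncRNA:CR45805 (0.378 and 0.982) and lncRNA:CR45552 (0.875 and 0.360), the last of which was higher in replicate 1. These 5 had pooled signals between 130 and 226, against a median of 216 over the 362 peaks, and those of CR43928 and CR43650 (222) were above that median.

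**Figure D4:**
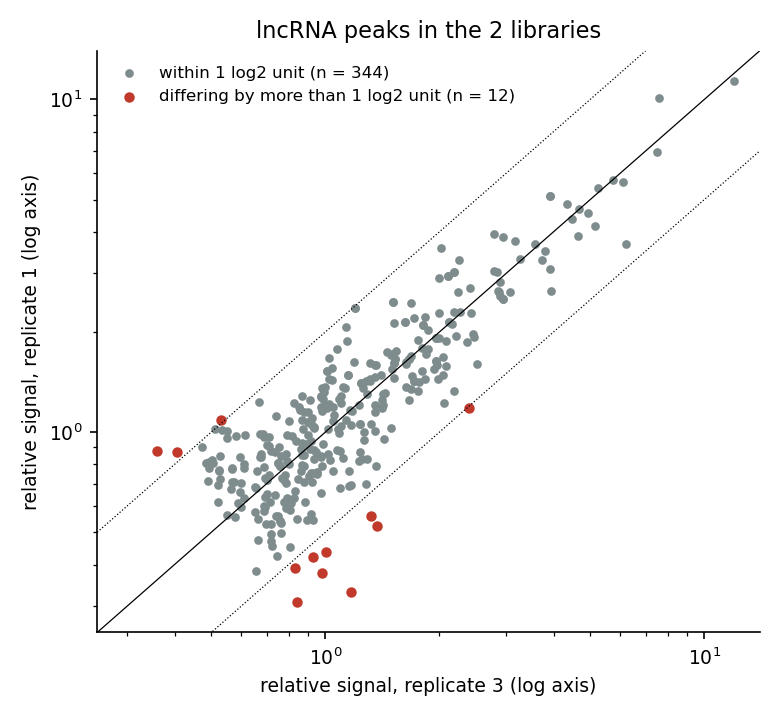
Relative signal of the 356 lncRNA peaks with a region in both libraries, replicate 3 on the horizontal and replicate 1 on the vertical axis (both log axes; the solid line is equality and the dotted lines mark a log2 difference of 1). Red points are the 12 peaks outside the dotted lines, 9 of them higher in replicate 3 (136 of 212 over all peaks).

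The summit windows were rich in A and T, as those of other peaks were. The summit windows of the lncRNA peaks had 66.6% ± 8.62 A+T (SD over 362 windows), those of the protein-coding set 66.3% ± 9.09 and those of peaks with no TSS within 2 kb 66.4% ± 8.31. Windows of the same length centred on the annotated lncRNA TSSs had 58.7% ± 9.50, and on all TSSs 56.6% ± 8.82. The mean A+T of 21-bp windows was 66.7% at the summit of the lncRNA peaks, 55.9% at -300 bp and 55.6% at 300 bp. An A+T-only run of at least 12 bp was present in 130 of 362 summit windows (35.9%), in 34.6% of the protein-coding set and in 30.1% of peaks with no TSS in reach, against 18.9% of lncRNA TSS windows.

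**Figure D5:**
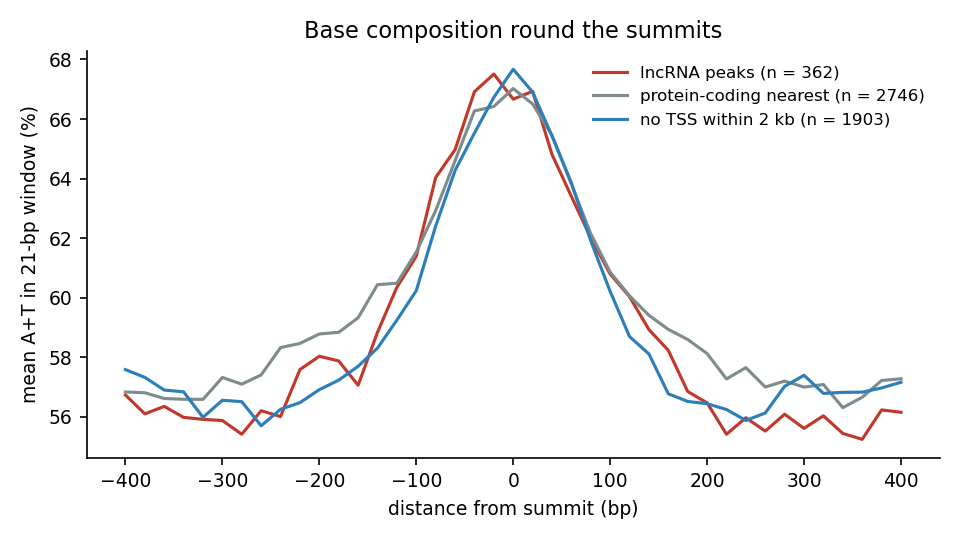
Mean A+T content (vertical axis, percent) in 21-bp windows by distance from the summit (horizontal axis, bp) for the 362 lncRNA peaks (red), 2746 peaks nearest to a protein-coding TSS (grey) and 1903 peaks with no TSS within 2 kb (blue). All 3 curves are highest near the summit, and at the summit itself they stand at 66.7%, 67.0% and 67.7%.

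The range within the set was wide, from 35.6% to 86.1% A+T. The extremes on 2L, 3L, 3R, 4 and X are shown to mark that range, with capitals for A+T runs of at least 8 bp on the plus strand of dm6.
lncRNA:CR43822, 2L:3573777-3573877: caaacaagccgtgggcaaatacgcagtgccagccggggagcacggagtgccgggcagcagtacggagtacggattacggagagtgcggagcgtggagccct
lncRNA:CR44717, 3L:11248456-11248556: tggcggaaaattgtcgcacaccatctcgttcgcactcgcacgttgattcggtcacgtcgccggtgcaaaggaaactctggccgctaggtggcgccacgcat
lncRNA:CR44549, 3L:11444291-11444391: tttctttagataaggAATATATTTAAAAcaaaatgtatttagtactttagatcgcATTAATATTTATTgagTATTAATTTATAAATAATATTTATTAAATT
lncRNA:CR43973, 3L:15098858-15098958: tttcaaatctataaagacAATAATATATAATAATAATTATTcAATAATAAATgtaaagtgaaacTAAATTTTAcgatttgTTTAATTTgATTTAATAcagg
The G+C-rich windows of CR43822 (signal 131) and CR44717 (signal 132) hold no such run. The A+T-rich window of CR44549 (86.1%, signal 140) has 3 runs, the longest of 30 bp, and that of CR43973 (84.2%, signal 411) has 5.

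Motifs were searched on both strands of the summit windows, and no motif searched contains another. TATAAA, the TATA box core, was in 22.9% of the lncRNA windows, 22.0% of the protein-coding set and 14.99% of 23581 TSS-centred windows. It was as common, at 22.8%, in the windows of peaks with no TSS within 2 kb, so its presence does not mark a promoter. Summit windows were richer in A+T than TSS windows, and the motif shares were not adjusted for this. AATATTTA, an A+T 8-mer picked out from these same peaks, was in 5.80% of the lncRNA windows, 6.01% of the protein-coding set and 1.70% of all TSS windows. Peaks with no TSS within 2 kb had it in 7.51% of windows. The highest lncRNA peaks with AATATTTA were those at asRNA:CR45928, lncRNA:CR43287 (signal 760) and asRNA:CR45804. GAGAG, bound by the GAGA factor, was in 13.3% of the lncRNA windows, 10.7% of the protein-coding set and 12.6% of all TSS windows. TATCGATA, the DRE of housekeeping promoters, was in 1 lncRNA window (0.276%), at asRNA:CR46067, against 1.49% of the protein-coding set and 3.76% of all TSS windows. It was also in 0.315% of the windows of peaks with no TSS within 2 kb and in 0.691% of lncRNA TSS windows. GGTCACAC, the core of the motif bound by M1BP, was in 0 of 362, which allows a share of up to 0.829% (3 counts), against 0.692% and 3.90%. Peaks with no TSS within 2 kb had it in 0.263% of windows and lncRNA TSSs in 0.384%. CAGCTG, an E box, was in 1.38%, against 3.57% and 7.83%, with 3.15% of peaks with no TSS within 2 kb and 3.88% of lncRNA TSSs. CACGTG, another E box, was in 0.552%, against 0.838% and 1.80%, with 0.578% and 1.07% in those other sets. CAGGTAG, the Zelda site of early embryonic enhancers, was in 2 lncRNA windows (0.552%), at CR45643 (signal 1009) and CR45750 (signal 394), against 0.437% and 0.471%.

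The 2000 bp limit passed through a continuous range of positions. Just inside it lay lncRNA:CR46090 (-1985 bp, signal 291), lncRNA:CR43642 (1972 bp, 159) and lncRNA:CR42839 (1910 bp, 371). Just outside lay the summits nearest to lncRNA:CR44908 (2059 bp, 297), lncRNA:CR44888 (2060 bp, 195) and lncRNA:CR44366 (2077 bp, 205).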

How the data were processed

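Peaks came as narrowPeak lists in dm6. There were 30000 relaxed regions for each library, a relaxed list from both libraries, and the list kept by the irreproducible discovery rate (IDR), which was found to hold exactly the top regions of the pooled list by signal. The signal per peak is a value deposited by the authors, and its scale is not the same from list to list. Aligner and peak caller were not given in the sources used here. Lists in dm3 were not used. Per the file listings, a single control alignment served both libraries; it was not used here.

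Summits were the 0-based start plus the summit offset plus 1. The nearest TSS was taken over all annotated transcripts of Ensembl release 115 (BDGP 6.54), without transposable elements, on 2L, 2R, 3L, 3R, 4 and X; sequence came from the RefSeq release 6 assembly, whose chromosome lengths contained all peaks. The signal of the strongest region that overlapped by at least 1 bp was used for each library. Gene and motif shares are descriptions. Calculations were tested on simulated data. Software was matplotlib 3.10.9, scipy 1.17.1, pandas 2.3.3, numpy 2.4.6 and Python 3.11.15.

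The members, the gene lists and AATATTTA were chosen with earlier results of these data known. Named genes followed a rule: the 15 highest members, the listed characterised RNAs, genes with 3 or more members, the 5 members that differed most between libraries, those without a region in a library, up to 10 asRNA: and 6 protein-coding promoter members by signal, and 3 on either side of the 2000 bp limit. The 4 windows of extreme A+T and the members that hold a motif were named after their values were seen. Alternatives are listed in the closing section.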

Additional observations from a re-analysis of the deposited data

How the results depend on the processing

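Of 69 recomputed values, 43 stayed within the 95% Wilson interval of the reported share, within 1.5 times the reported count or within 1 SD of the 2 libraries (signal ratio and A+T). The other 26 moved. Windows, sets and thresholds change these values by construction; otherwise the cause was not tested. With a 1000 bp window, 66.8% of members lay within 500 bp of the TSS and 12.4% had a protein-coding TSS within 500 bp; with a 500 bp window there were 173 members, 9.1% of peaks near a TSS, 100% of them by definition within 500 bp, 59.5% upstream and 18.5% at a protein-coding TSS. The 2543 highest peaks gave 194 members, a median A+T of 69.3% and 4.7% of lncRNA genes with a summit. Leaving out a library gave median A+T of 67.3% to 68.3%. With gene records in place of transcripts, members were 15.2% of peaks near a TSS, the median signal was 1.01 times that of all peaks in place of 1.05, and 13.6% had a protein-coding TSS within 500 bp; without asRNA: genes these shares were 10.2% and 6.17%. Genes with a summit numbered 3.51% at 200 bp, 13.5% at 1000 bp and 6.58% by nearest TSS. Median A+T was 68.6% with 25 bp on either side of the summit and 65.7% with 100 bp. Overlap with both libraries was 95.6% when 50% of the peak had to overlap and 78.7% within the top regions of each library. Differences between libraries reached 5.9% with the region of the nearest summit and 16.3% as rank shifts of over 25 percentile points, against 18.4% of all peaks. Taking only the strongest member of each gene, chosen after seeing the data, gave a signal ratio of 1.12; counting ties, also added then, gave 368 members. No paired analysis was possible because there is a single group. Depth is unknown, so no counting error can be given for a signal.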

Other observations

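Genes that host snoRNAs in their introns, named Uhg, are non-coding but outside the name rule. Of 7 matched in the annotation, 4 had a reproducible summit within 500 bp of a TSS. The highest was at Uhg4, at -51 bp, with a pooled signal of 765 and relative signals of 3.53 in replicate 1 and 3.53 in replicate 3. Uhg2 (-73 bp, signal 212) had no region in replicate 1 and stood at 1.06 in replicate 3. Uhg1 (-124 bp, signal 133) had 0.837 and 0.497, and Uhg5 (-40 bp, signal 136) had 0.521 and 0.725. All 4 summits lay upstream of the TSS, the side on which 77.4% of the protein-coding peaks within 500 bp of a TSS also lay.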
